A study of Mus musculus with 16 samples.

Results

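The carbonic anhydrase genes described here are the 9 rows of the deposited count table whose Ensembl identifiers carry the mouse symbols Car1, Car2, Car3, Car4, Car7, Car8, Car9, Car12 and Car13, out of 21965 genes in the table. They were chosen by symbol, without a threshold on any value, and all 9 passed the filter on low counts. The libraries came from the ileum of 16 male C57BL/6 mice, with 1 poly(A)-selected library per mouse. The mice were wild-type (WT) or fat-1, and all had an all-liquid diet, started at 8 to 10 weeks of age. The fat-1 mice were heterozygous littermates of the WT mice and carry a Caenorhabditis elegans desaturase that turns n6 into n3 polyunsaturated fatty acids in all tissues. Ethanol-fed (EtOH) mice had ethanol raised stepwise to 6% (v/v), which was kept for 3 weeks, and pair-fed (PF) mice had no ethanol. PF mice were 4 WT and 4 fat-1, and EtOH mice 3 WT and 5 fat-1, named below by the replicate numbers of their labels.

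Carbonic anhydrases are zinc enzymes that turn carbon dioxide and water into bicarbonate and a proton, and back. In the gut they supply bicarbonate to the exchangers that neutralize acid at the mucosa and protons to sodium and hydrogen exchange, and in the large intestine the cytosolic forms are abundant in surface epithelial cells. Car1, Car2, Car3, Car7 and Car13 encode cytosolic enzymes, of which the product of Car2 is very fast and that of Car3 slow. Car4 encodes a form held on the outer membrane surface by a lipid anchor, and Car9 and Car12 encode forms that cross the membrane with the active site outside. Car8 encodes a related protein that lost a zinc ligand and has no enzyme activity.

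In GRCm38, with GENCODE M21 gene models, 4 of the cytosolic genes lie within 259 kb of chromosome 3. Car13 (ENSMUSG00000027555) spans chr3:14641727-14663002 on the plus strand, Car1 (ENSMUSG00000027556) chr3:14766216-14808368 on the minus strand, Car3 (ENSMUSG00000027559) chr3:14863512-14872523 and Car2 (ENSMUSG00000027562) chr3:14886273-14900770, both on the plus strand. The gaps between them are 103.2, 55.1 and 13.8 kb in this order. The other genes are spread over 4 chromosomes. Car4 (ENSMUSG00000000805) spans chr11:84957786-84966044, Car7 (ENSMUSG00000031883) chr8:104534689-104550343, Car9 (ENSMUSG00000028463) chr4:43506966-43513729 and Car12 (ENSMUSG00000032373) chr9:66713686-66766845, all on the plus strand, and Car8 (ENSMUSG00000041261) chr4:8143362-8239041 on the minus strand. Of the stretches of 75 bases in the transcripts of Car1, 6.02% also occur in Gm5843, and 3.46% of those of Car9 occur in Gm12454, a gene on the opposite strand that overlaps it. The use of strand in the counting is not given in the sources used here, so that reads of Car9 and Gm12454 may not be told apart. None was shared for the other 7 genes. Car1 and Car8 overlap Gm16399 and Gm11799 on their own strands.

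Car9 and Car12 are both widely known as genes that low oxygen can raise, and they differed in these data, so the 250 bases before their RefSeq start sites were searched (GRCm38.p6, plus strand, chr4:43506776-43507025 and chr9:66713436-66713685). The last 30 bases are shown for Car9 (chr4:43506996-43507025) and the whole window for Car12. Capitals mark the core of the hypoxia response element, ACGTG, searched on both strands, here as its reverse complement CACGT.
Car9 upstream: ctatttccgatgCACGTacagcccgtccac
Car12 upstream: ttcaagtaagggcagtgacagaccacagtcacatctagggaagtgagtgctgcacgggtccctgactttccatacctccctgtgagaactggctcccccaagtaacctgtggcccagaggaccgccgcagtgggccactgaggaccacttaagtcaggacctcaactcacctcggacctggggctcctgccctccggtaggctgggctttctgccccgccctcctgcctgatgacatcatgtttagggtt
The Car9 window holds 1 match, 18 bases before the RefSeq start site, and the Car12 window holds none. For Car12 the RefSeq and GENCODE starts are the same, but for Car9 the RefSeq start lies 60 bases inside the GENCODE gene given above, so that the match lies 42 bases after the GENCODE start. Of 32851 RefSeq promoters of the same length, 16.6% hold these letters on either strand. Neither window holds the letters searched for a CDX factor core, TTTAT (37.3% of promoters), or for a GATA factor motif, AGATAA (9.99%). Other forms of these motifs were not searched. Car4 and Car7 were the other genes with an entry in the promoter table, and their only match was AGATAA in 1 promoter of Car7. A match is a description of the letters, and no match says only that they are not in this window.

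Library totals ran from 8422645 to 11438539 counts. Some libraries stood apart in genes of gut position, and these were described before the family because several of its values rest on them. The summed normalised read counts (CPM, counts per 1000000 of the scaled library size) of 9 large intestine genes were 724, 678 and 461 in WT EtOH mouse 2 and fat-1 EtOH mice 3 and 4, against 27.9 to 112 in the other 13 mice. Within this list Aqp8 was at 315, 168 and 95.4 CPM in these mice and at most 1.11 CPM elsewhere, whereas Fxyd4 had no count in any mouse and Hoxb13 and Hoxd13 were at or near 0 in all. WT EtOH mouse 2 kept an ileal level of Slc10a2, the bile acid transporter of the ileum, at 1174 CPM, against 394 and 531 CPM in fat-1 EtOH mice 3 and 4. In fat-1 PF mice 2 and 4 Slc10a2 was at 7.58 and 3.56 CPM, and the 6 ileal bile acid genes together at 491 and 439 CPM against 1083 to 8304 in the other 14 mice. Of the list, Fabp6 was at 26.1 and 3.31 CPM there and Fgf15 at 0.14 and 0 CPM. The basolateral bile acid transporter gene Slc51a was lower there, at 314 and 253 CPM against 332 to 1461 CPM in the other mice, as was Nr1h4, the bile acid receptor gene, at 30.2 and 35.1 CPM against 120 to 279 CPM. Slc51b, the partner of Slc51a, was at 113 and 145 CPM there and at 69.1 to 407 CPM in the other mice. The 8 proximal small intestine genes summed to 2024 to 51565 CPM in PF mice and 205 to 598 CPM in EtOH mice, and every PF mouse lay above every EtOH mouse. The 6 smooth muscle genes summed to 906 to 1434 CPM in PF mice and 1859 to 4042 CPM in EtOH mice, and 6 of 6 rose in fat-1 mice, while 2 of 6 epithelium genes, Vil1 and Krt20, fell. The part of these shifts in the changes with EtOH given below was not tested. In such bulk tissue, fewer cells of a type and less RNA per cell cannot be told apart.

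Per length of exon, Car4 had the highest median level of the family in each of the 4 groups. In WT PF mice its median was 113 CPM per kb (range 102 to 161), followed by Car13 at 61.9 (33.1 to 80.2), Car3 at 27.3 (22.0 to 81.9), Car9 at 25.2 (23.0 to 27.4), Car8 at 6.28 (5.76 to 7.05), Car12 at 2.98 (1.80 to 4.27), Car2 at 2.76 (2.10 to 6.18), Car1 at 1.49 (0.0907 to 46.9) and Car7 at 0.200 (0.150 to 0.286). The ranges over mice of Car4 and Car13, of Car9 and Car8, and of Car8 and Car12 did not overlap, and those of the other neighbours in this order did. The order of the rest changed with the group. In fat-1 PF mice the ranges of Car4 (39.5 to 131) and Car13 (43.8 to 57.2) overlapped. In WT EtOH mice Car3 came second at a median of 70.6 CPM per kb, and Car9 and Car13 followed at 26.0 and 25.0 with overlapping ranges. In fat-1 EtOH mice Car1 came second at 63.4 (0.761 to 9782), and its range overlapped those of Car4 and Car3 on either side.

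**Figure D1:**
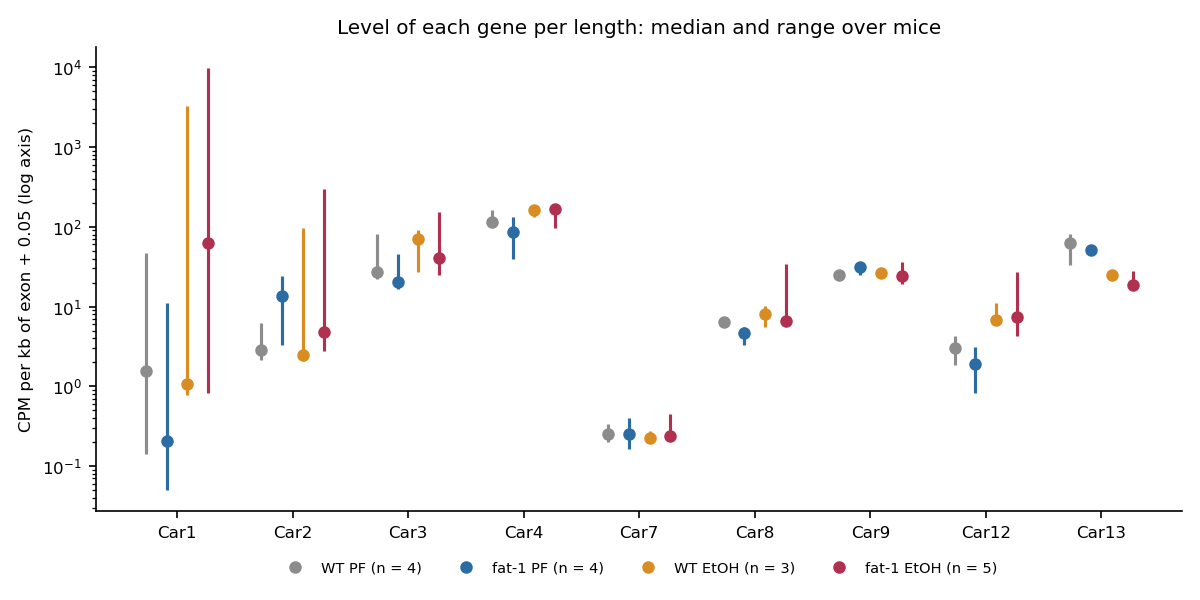
Level of each of the 9 genes per kilobase of exon (CPM per kb + 0.05, log axis), with the median as a point and the range over mice as a line, for the 4 groups. Car4 had the highest median in each group, Car7 stayed near 0.2 CPM per kb, and Car1 in fat-1 EtOH mice ran from 0.761 to 9782 CPM per kb.

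Summed over the 9 genes, the family stood at 173 to 435 CPM per kb in 13 mice and at 3635, 9564 and 10411 CPM per kb in WT EtOH mouse 2 and fat-1 EtOH mice 3 and 4. Car1 made up 89.1%, 93.5% and 94.0% of the sum in these mice. Without Car1, they stood at 397, 624 and 628 CPM per kb, still above the highest of the other 13 mice, 371. Car4 was the largest share in 11 of the other mice, and in fat-1 PF mice 2 and 4 the largest share was that of Car13, at 24.1% and 25.3%.

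**Figure D2:**
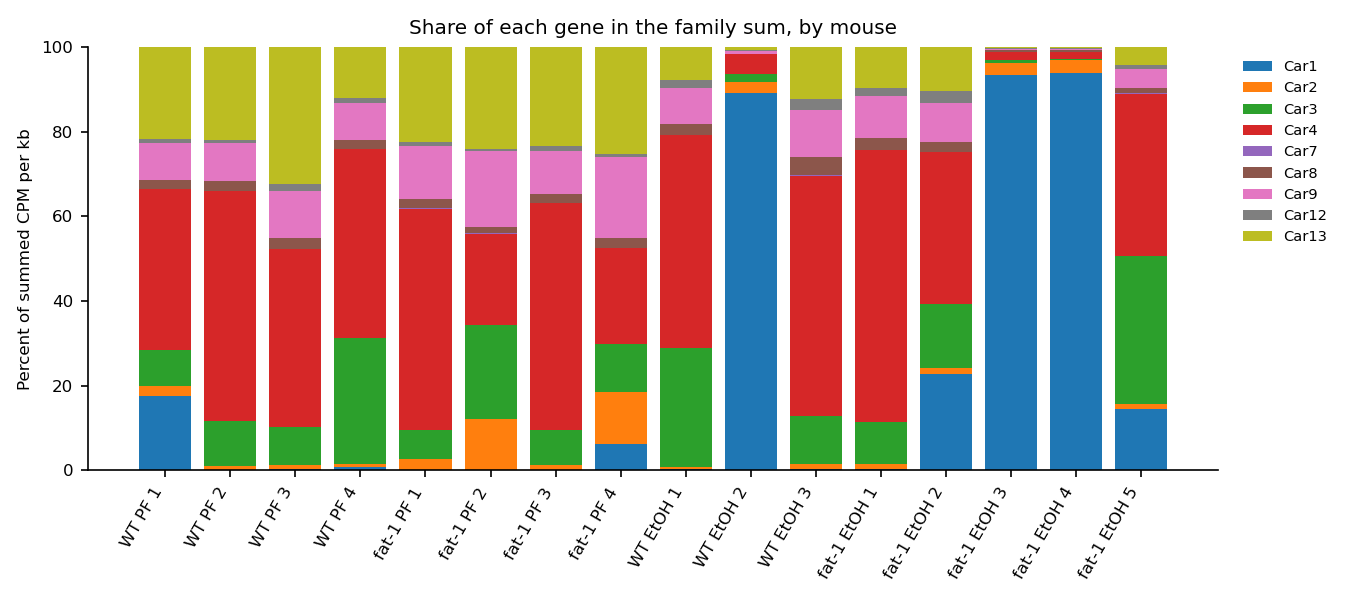
Share of each gene in the family's summed CPM per kb (percent), 1 bar per mouse. Car1 takes 89.1%, 93.5% and 94.0% in WT EtOH mouse 2 and fat-1 EtOH mice 3 and 4, and Car4 or Car13 is the largest share in every other mouse.

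The effect of the diet was compared within each genotype with edgeR's quasi-likelihood test over all 13811 genes tested, with Benjamini-Hochberg adjustment, and a gene is said to have changed where its adjusted p was 0.05 or less. In fat-1 mice 4 of the 9 genes changed: Car1, Car12 and Car8 rose, and Car13 fell. In that comparison 37.4% of all genes changed, 18.7% higher and 18.8% lower, so that the share of the family, 4 of 9, was near that of all genes with edgeR. The count depended on the fit: DESeq2 called 7 of the 9 (all but Car7 and Car9) and 5556 of 13785 genes in all, and without fat-1 PF mice 2 and 4 edgeR called 1 of the 9 (Car13) and 1965 of 14100 genes in all. With upper-quartile scaling, which counted 3906 of 5659 changed genes as higher against 2578 of 5170 here, 5 of the 9 changed, as Car4 then passed too. The median log2 fold change of the 9 genes was 1.33, and that of all genes 0.05. In WT mice 0 of the 9 genes changed and 0.0796% of all genes did. At an unadjusted p under 0.05, 2 of the 9 and 1953 of all genes passed in WT mice, and 6 of the 9 and 6612 of all genes in fat-1 mice. In WT mice DESeq2 called 1 of the 9 (Car13) and 257 of 13785 genes in all, and limma voom called 2 (Car12 and Car13) and 2800 of 13811 genes in all. The median log2 fold change there was 0.33 for the 9 genes and 0.01 for all genes.

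**Figure D3:**
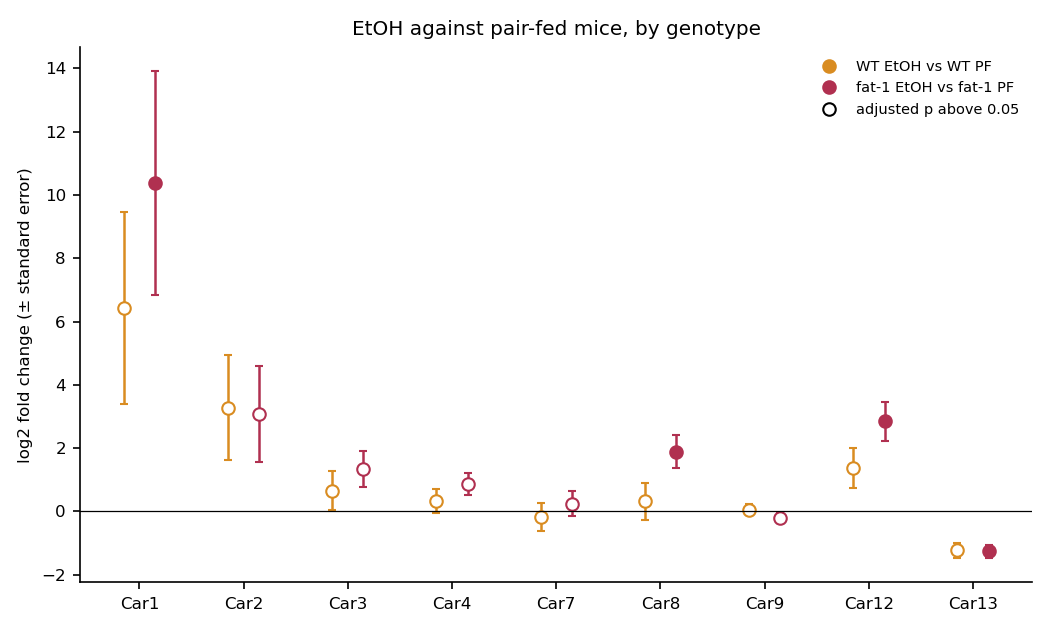
Log2 fold change of each gene in EtOH against PF mice, with the standard error as a bar, in WT mice (3 against 4) and fat-1 mice (5 against 4). Filled points passed an adjusted p of 0.05 (edgeR), which Car1, Car8, Car12 and Car13 did in fat-1 mice and none did in WT mice.

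The groups of mice did not overlap for 3 of the 9 genes in fat-1 mice, where Car8 and Car12 were higher and Car13 lower in every EtOH mouse. For all genes tested this share was 24%. In WT mice it held for Car12, higher, and Car13, lower, and for 24.3% of all genes. For the other genes the ranges of the EtOH and PF mice overlapped.

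**Figure D4:**
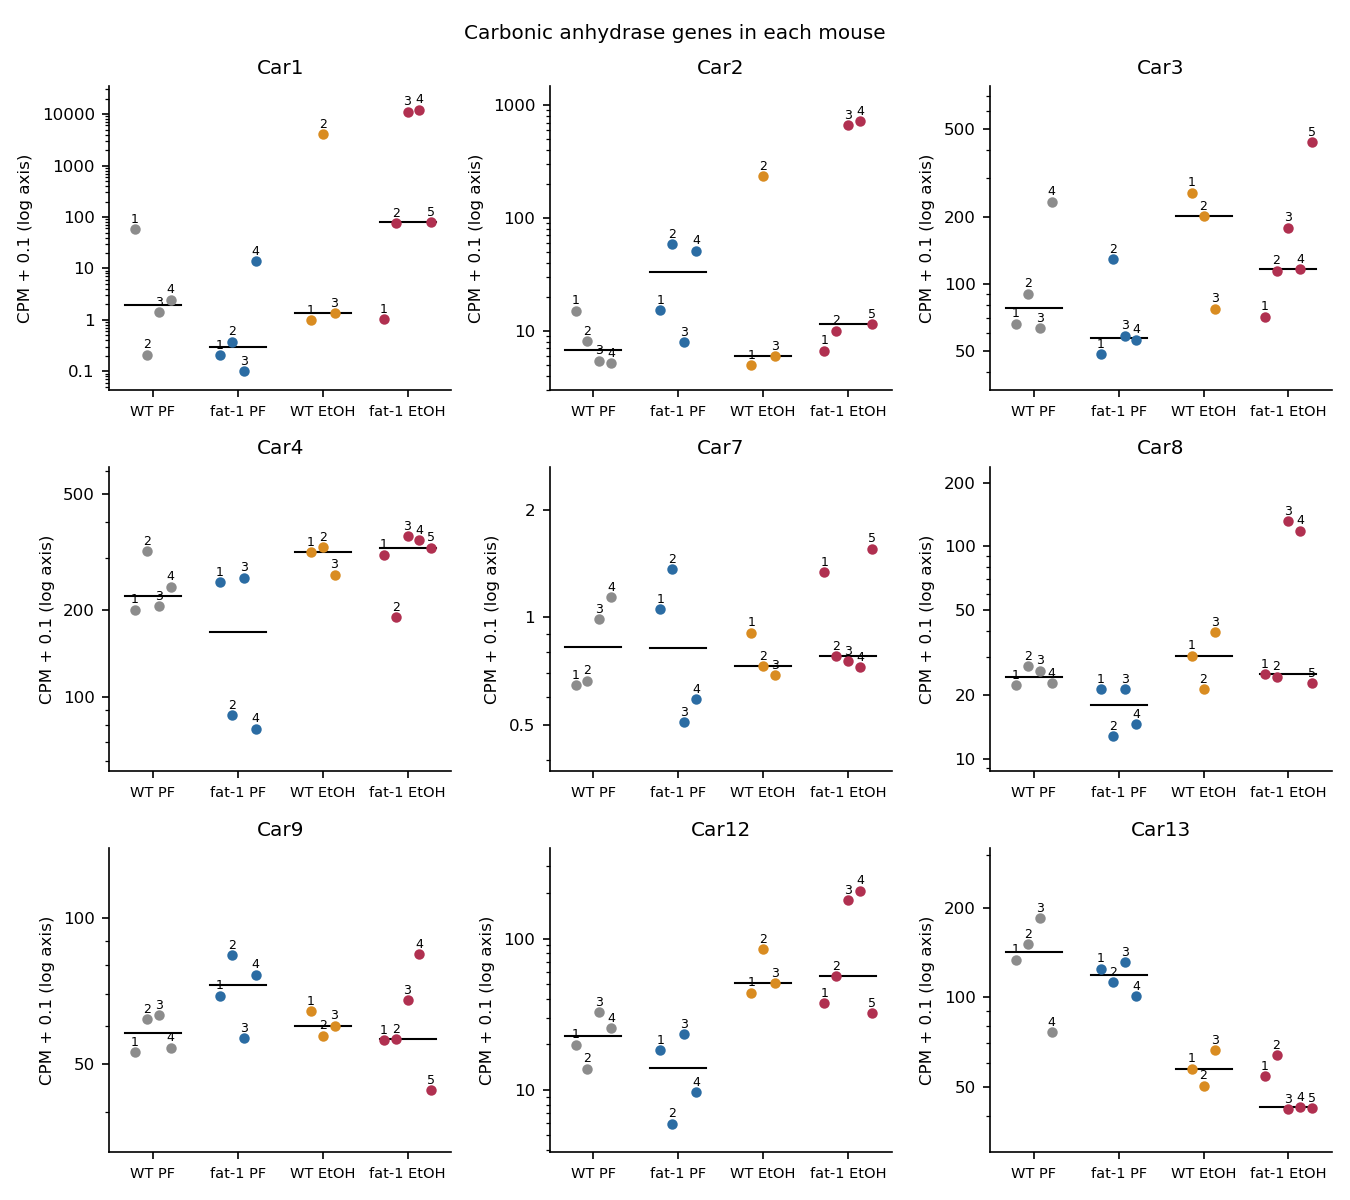
CPM + 0.1 (log axis) of the 9 genes in each mouse, by group, with the replicate number beside each point and the group median as a line. WT EtOH mouse 2 and fat-1 EtOH mice 3 and 4 lie far above their groups for Car1 and Car2, and every EtOH mouse lies below every PF mouse for Car13.

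Car1, a cytosolic enzyme of red blood cells and of the large intestine surface, had the widest range of the family. It stood at 58.6, 0.113, 1.33 and 2.39 CPM in WT PF mice, at 0.106, 0.281, 0 and 13.6 CPM in fat-1 PF mice, at 0.895, 4041 and 1.26 CPM in WT EtOH mice, and at 0.950, 75.7, 11157, 12208 and 79.1 CPM in fat-1 EtOH mice, where 3 counts were 0.246 to 0.421 CPM. The level was thus very high in 3 EtOH mice, and fat-1 EtOH mice 2 and 5 lay far below these but above every PF mouse. In both genotypes the lowest EtOH mice lay within the range of the PF mice. With 136041 and 136845 counts it was the most abundant of all genes in fat-1 EtOH mice 3 and 4, where it took 1.39% and 1.51% of all counts, and it ranked 10 in WT EtOH mouse 2. The mean in fat-1 mice was 4704 ± 6381 CPM with EtOH (SD, n = 5) against 3.50 ± 6.75 CPM with PF (SD, n = 4). The log2 fold change was 10.38 (SE 3.53, adjusted p = 0.0325, edgeR), and 9.66 to 15.05 without single mice. In WT mice it was 1348 ± 2332 CPM with EtOH (SD, n = 3) against 15.6 ± 28.7 CPM with PF (SD, n = 4), and the log2 fold change was 6.43 (SE 3.04, adjusted p = 0.358, edgeR). Without the 3 EtOH mice with high large intestine genes, the log2 fold change was 3.91 in fat-1 mice (adjusted p = 0.113, edgeR) and -3.83 in WT mice (adjusted p = 0.427, edgeR), so that the call was lost and the direction in WT mice turned. The call in fat-1 mice was also lost without fat-1 PF mouse 1, 2 or 3 (log2 fold changes 9.97, 10.01 and 9.98, adjusted p = 0.0693, 0.0809 and 0.0734, edgeR), all of which had 2 counts or fewer, without fat-1 PF mice 2 and 4 together, at 15.996 (adjusted p = 0.112, edgeR), and with limma voom, at 5.14 (adjusted p = 0.625). The 5 red blood cell genes tested did not change, and the 7 genes of that list summed to 6.40 to 43.1 CPM over all mice, and none of the 3 mice highest in Car1 was among the 3 highest in this list.

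Car2, the fast cytosolic enzyme, was high in the same 3 EtOH mice and in a pair of PF mice. Its level was 15.0, 8.04, 5.33 and 5.09 CPM in WT PF mice, 15.2, 58.7, 7.79 and 51.2 CPM in fat-1 PF mice, 4.83, 234 and 5.88 CPM in WT EtOH mice, and 6.56, 9.95, 662, 721 and 11.4 CPM in fat-1 EtOH mice. The other 5 EtOH mice lay between 4.83 and 11.4 CPM, below fat-1 PF mice 2 and 4, the mice low in ileal genes. The log2 fold change with EtOH was 3.09 in fat-1 mice (SE 1.52, adjusted p = 0.122, edgeR) and 3.28 in WT mice (SE 1.66, adjusted p = 0.386, edgeR). Without the 3 EtOH mice it was -1.79 in fat-1 mice (adjusted p = 0.0502, edgeR) and -0.64 in WT mice (adjusted p = 0.674, edgeR). Of 27 alternatives, Car2 passed in fat-1 mice with DESeq2 only, at 3.08 (adjusted p = 0.0462). The 3 mice highest in Car1, and those highest in Car2, were the 3 highest in the summed large intestine genes. Of these genes 3 of the 5 tested rose in fat-1 mice, Aqp8 and Scnn1b among them, and the other 2 did not pass. Aqp8 had at most 7 counts and Scnn1b at most 1 in any PF mouse. Both passed the filter on low counts only through EtOH mice, so their calls say no more than their levels. The part of large intestine cells in the levels of Car1 and Car2 was not tested.

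**Figure D5:**
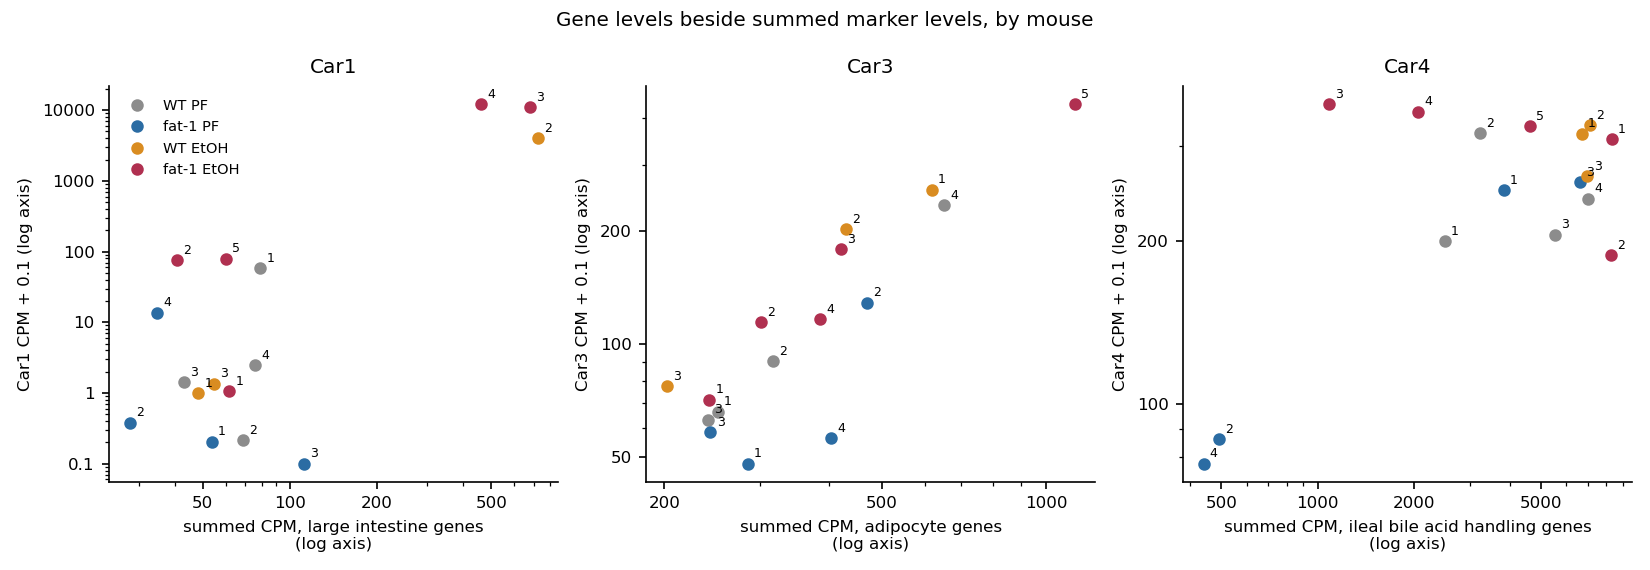
CPM + 0.1 of Car1, Car3 and Car4 (vertical, log axes) against the summed CPM of large intestine, adipocyte and ileal bile acid genes (horizontal, log axes), 1 point per mouse with its replicate number. The 3 mice with summed large intestine genes of 461 CPM or more had Car1 at 4041 CPM or more, the 3 mice highest in Car3 were the 3 highest in adipocyte genes, and the 2 mice lowest in Car4 were the 2 lowest in ileal genes, while the 2 highest in Car4, fat-1 EtOH mice 3 and 4, ranked 14 and 13 of 16 in them.

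Car3, the slow cytosolic enzyme known from fat cells, muscle and liver, varied with single mice in each group. It stood at 66.1, 90.3, 63.0 and 235 CPM in WT PF mice, at 48.0, 129, 58.4 and 56.1 CPM in fat-1 PF mice, at 258, 202 and 77.4 CPM in WT EtOH mice, and at 71.2, 115, 179.5, 117 and 436 CPM in fat-1 EtOH mice. The groups overlapped in both genotypes. The log2 fold change with EtOH was 1.33 in fat-1 mice (SE 0.58, adjusted p = 0.0811, edgeR) and 0.66 in WT mice (SE 0.63, adjusted p = 0.666, edgeR). In fat-1 mice it passed in 2 of 27 alternatives, with DESeq2, at 1.33 (adjusted p = 0.0338), and without fat-1 EtOH mouse 1, at 1.55 (adjusted p = 0.0474, edgeR). Without single mice the log2 fold change ran from 0.74 to 1.77 in fat-1 mice and from 0.30 to 1.29 in WT mice. The mice highest in Car3, fat-1 EtOH mouse 5, WT EtOH mouse 1 and WT PF mouse 4, had the highest summed CPM of 7 adipocyte genes, at 1129, 618 and 650, against 202 to 469 in the other 13 mice. Of this list 1 of 7 genes changed in fat-1 mice, Cidec, which fell by 0.98 on the log2 scale. The other 6 had log2 fold changes of 0.75 (Fabp4) to 1.53 (Plin1) that did not pass, and the median of the list was 1.34. Of 3 skeletal muscle genes tested, Ckm rose in fat-1 mice. The 5 genes of this list summed to 16.7 to 81.2 CPM, and Myh4, a defining one, was at 0 in 15 mice. The part of fat or muscle tissue in the level of Car3 was not tested.

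Car13, a cytosolic enzyme present in the gut, was the one of the 9 genes that fell. Its level was 134, 151, 184 and 76.2 CPM in WT PF mice, 125, 112, 131 and 101 CPM in fat-1 PF mice, 57.5, 50.4 and 66.1 CPM in WT EtOH mice, and 54.4, 63.9, 42.0, 42.6 and 42.3 CPM in fat-1 EtOH mice. Every EtOH mouse lay below every PF mouse, and WT PF mouse 4 was the lowest of the PF mice. In fat-1 mice the mean was 49.0 ± 9.79 CPM with EtOH (SD, n = 5) against 117 ± 13.6 CPM with PF (SD, n = 4), and Car13 fell by 1.26 on the log2 scale (SE 0.21, adjusted p = 0.000625, edgeR), a call that stood in all 27 alternatives tried. In WT mice it was 58.0 ± 7.88 CPM with EtOH (SD, n = 3) against 136 ± 45.2 CPM with PF (SD, n = 4), and the log2 fold change was -1.23 (SE 0.24, adjusted p = 0.0746, edgeR). It passed in 5 of 27 alternatives there, among them the fit without WT PF mouse 4, at -1.43 (adjusted p = 0.00288, edgeR). The interaction of genotype and diet was -0.03 (SE 0.31, adjusted p = 0.982, edgeR). WT PF mouse 4 was also the PF mouse with the lowest summed proximal small intestine genes, 2024 CPM. In fat-1 PF mice the order was the other way. Mice 2 and 4 had the highest sums, 51565 and 50565 CPM, and the lowest Car13 of that group. Of the proximal genes 6 of 8 fell and 1, Slc40a1, rose in fat-1 mice (log2 fold change 1.59, adjusted p = 0.0175, edgeR), and 2 of 8 fell in WT mice. The part of gut position in the level of Car13 was not tested.

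Car7, a cytosolic enzyme best known from the brain, was near the limit of what was counted. It stood at 0.410 to 1.45 CPM, which were 3 to 17 counts, in all 16 mice. Its log2 fold change with EtOH was 0.25 in fat-1 mice (SE 0.39, adjusted p = 0.635, edgeR) and -0.17 in WT mice (SE 0.45, adjusted p = 0.893, edgeR), and no difference was detected.

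Car4, the lipid-anchored form of the brush border, was the main carbonic anhydrase transcript of most mice. Its level was 199.9, 317, 206 and 239.6 CPM in WT PF mice, 249, 86.2, 257 and 77.6 CPM in fat-1 PF mice, 316, 327 and 264 CPM in WT EtOH mice, and 309, 189, 359, 347 and 327 CPM in fat-1 EtOH mice. The groups overlapped, and 14 mice lay between 189 and 359 CPM, well above fat-1 PF mice 2 and 4. The log2 fold change with EtOH was 0.87 in fat-1 mice (SE 0.34, adjusted p = 0.0542, edgeR) and 0.33 in WT mice (SE 0.37, adjusted p = 0.727, edgeR). Without fat-1 PF mice 2 and 4, which were the lowest in the summed ileal genes, it was 0.28 in fat-1 mice (adjusted p = 0.405, edgeR), and without all 5 mice that stood apart 0.13 (adjusted p = 0.733, edgeR). It passed in 7 of 27 alternatives, among them DESeq2, at 0.87 (adjusted p = 0.0256), limma voom, at 1.12 (adjusted p = 0.0382), and the fit without fat-1 PF mouse 3, at 1.16 (adjusted p = 0.0217, edgeR). Over the other mice Car4 did not follow these genes: fat-1 EtOH mice 3 and 4 had the highest Car4 and ranked 14 and 13 of 16 in the ileal sum, and fat-1 EtOH mouse 2 ranked 14 in Car4 and 2 in the ileal sum. Between the PF groups the log2 fold change of fat-1 against WT was -0.52 (SE 0.35, adjusted p = 0.576, edgeR), and 0.065 without these mice.

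Car9, which crosses the membrane and is known from proliferating crypt cells and as a gene that low oxygen raises, was the most even of the genes over 1 CPM. It stood at 53.0, 61.9, 63.2 and 54.0 CPM in WT PF mice, at 69.2, 83.9, 56.6 and 76.5 CPM in fat-1 PF mice, at 64.2, 57.2 and 59.99 CPM in WT EtOH mice, and at 56.1, 56.2, 67.7, 84.4 and 44.1 CPM in fat-1 EtOH mice. The groups overlapped in both genotypes. The log2 fold change with EtOH was -0.21 in fat-1 mice (SE 0.16, adjusted p = 0.293, edgeR) and 0.06 in WT mice (SE 0.18, adjusted p = 0.909, edgeR). Without the 3 EtOH mice with high large intestine genes it passed in fat-1 mice, at -0.43 (adjusted p = 0.0321, edgeR), the only one of 27 alternatives in which it did. Of 9 hypoxia response genes, 4 fell in fat-1 mice (Vegfa, Pgk1, Ldha and Bnip3), and Slc2a1, a glucose transporter, rose. None of the 9 changed in WT mice.

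Car12, which also crosses the membrane and is known from large intestine surface cells, was higher in each EtOH mouse than in any PF mouse of its genotype. Its level was 19.8, 13.7, 32.4 and 25.5 CPM in WT PF mice, 18.2, 5.90, 23.4 and 9.57 CPM in fat-1 PF mice, 43.8, 84.9 and 50.7 CPM in WT EtOH mice, and 37.2, 56.3, 180.1, 207 and 32.1 CPM in fat-1 EtOH mice. The highest EtOH mice were again WT EtOH mouse 2 and fat-1 EtOH mice 3 and 4, and the lowest PF mice were fat-1 PF mice 2 and 4. In fat-1 mice the mean was 103 ± 84.3 CPM with EtOH (SD, n = 5) against 14.3 ± 7.97 CPM with PF (SD, n = 4), and Car12 rose by a log2 fold change of 2.84 (SE 0.61, adjusted p = 0.00331, edgeR). In WT mice it was 59.8 ± 22.0 CPM with EtOH (SD, n = 3) against 22.8 ± 7.998 CPM with PF (SD, n = 4), and the log2 fold change was 1.39 (SE 0.63, adjusted p = 0.341, edgeR). Without the 3 EtOH mice Car12 passed in fat-1 mice with a smaller log2 fold change, 1.57 (adjusted p = 0.0163, edgeR). Without fat-1 PF mice 2 and 4 the log2 fold change there was 2.30 (adjusted p = 0.0625, edgeR), and without all 5 mice it was 1.03 (adjusted p = 0.0811, edgeR), so that the call was lost.

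Car8, which encodes the protein without enzyme activity, was high in a pair of mice only. Its level was 22.2, 27.2, 25.9 and 22.6 CPM in WT PF mice, 21.1, 12.6, 21.2 and 14.5 CPM in fat-1 PF mice, 30.5, 21.1 and 39.5 CPM in WT EtOH mice, and 25.0, 24.2, 132, 119 and 22.7 CPM in fat-1 EtOH mice. Fat-1 EtOH mice 3 and 4 stood far above the rest, whereas WT EtOH mouse 2, which shared their high Car1 and Car2, had the lowest Car8 of its group. In fat-1 mice the log2 fold change with EtOH was 1.89 (SE 0.53, adjusted p = 0.0130, edgeR), with every EtOH mouse above every PF mouse. In WT mice it was 0.32 (SE 0.57, adjusted p = 0.840, edgeR), and it passed there in 1 of 27 alternatives, without all 5 mice that stood apart, at 0.53 (adjusted p = 0.0476, edgeR). Without the 3 EtOH mice the log2 fold change in fat-1 mice was 0.49 (adjusted p = 0.0563, edgeR), and without all 5 mice 0.19 (adjusted p = 0.348, edgeR). The call was also lost without fat-1 PF mice 2 and 4, at 1.603 (adjusted p = 0.136, edgeR), in a fit of the 2 groups alone, at 1.91 (adjusted p = 0.0577, edgeR), and with limma voom, at 0.93 (adjusted p = 0.133).

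The effect of the genotype was asked within each diet. In PF mice, 0 of the 9 genes differed between the genotypes, as did 0% of all genes with edgeR, where 0 of the 9 and 1758 of all genes had an unadjusted p under 0.05. DESeq2 also called 0 of the 9, and 189 of 13785 genes in all. The smallest adjusted p was 0.476, for Car9. For Car8 every fat-1 PF mouse lay below every WT PF mouse, and for the other 8 genes the groups overlapped. Of all genes tested, 6.87% did not overlap in this comparison. The log2 fold change of Car2 was 1.99 (SE 1.56, adjusted p = 0.647, edgeR), and 0.46 without fat-1 PF mice 2 and 4.

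In EtOH mice, 0 of the 9 genes differed between the genotypes, against 0.00724% of all genes (edgeR). At an unadjusted p under 0.05, 0 of the 9 and 671 of all genes passed, and DESeq2 called 0 of the 9 and 5 of 13785 genes in all. The interaction of genotype and diet, which asks whether the change with EtOH differed between the genotypes, called 0 of the 9 and 0% of all genes (edgeR). Here 0 of the 9 and 1141 of all genes had an unadjusted p under 0.05, and DESeq2 called 0 of 13785 genes in all. Its smallest adjusted p in the family was 0.595, for Car8 (log2 difference 1.58, SE 0.78, edgeR), and the log2 difference of Car1 was 3.95 (SE 3.71, adjusted p = 0.709, edgeR). Without single mice the log2 difference of Car1 ran from 0.37 to 14.21. That Car1, Car8, Car12 and Car13 passed in fat-1 mice and not in WT mice was thus no shown difference between the genotypes.

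The table held 7 other carbonic anhydrase genes at low levels. Car10, Car6 and Car5a were at 0.513 CPM or below in every mouse and were not tested, as the filter on low counts removed them. Car5b, a mitochondrial form, reached 9.32 CPM, and Car14, which crosses the membrane, 5.88 CPM. Car11, which encodes another form without enzyme activity, rose in fat-1 mice from 0.424, 0.561, 0.547 and 0.491 CPM with PF to 1.14, 1.28, 1.89, 4.01 and 1.45 CPM with EtOH. Every EtOH mouse was higher, with a log2 fold change of 1.93 (SE 0.44, adjusted p = 0.00399, edgeR), from 4 counts in each PF mouse to 12 to 45 counts. Over both genotypes the most counts in a PF mouse were 12, in WT PF mouse 3. Car11 thus passed the filter on low counts only through EtOH mice, where it was higher, which limits its call. It was the 1 of the 4 tested that changed in any comparison.

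Of the transporters that move bicarbonate and protons, 14 of 15 were tested, and 2 rose and 1 fell with EtOH in fat-1 mice, while 0 changed in the other comparisons. Slc4a2, the anion exchanger of the basal membrane, rose by a log2 fold change of 1.06 (SE 0.34, adjusted p = 0.0232, edgeR) and was at 422 and 446 CPM in fat-1 EtOH mice 3 and 4 against 124 to 169.6 in the other fat-1 EtOH mice. Best2, a bicarbonate channel of large intestine goblet cells, rose by 6.05 (SE 2.21, adjusted p = 0.0443, edgeR). It was at 5.49 and 8.83 CPM in these mice (67 and 99 counts), at 1.99 CPM in WT EtOH mouse 2 (19 counts) and at most 0.219 CPM elsewhere. Best2 thus passed the filter on low counts only through these EtOH mice, and its call says no more than these values. Slc9a3r1, a scaffold of brush border transporters, fell by 1.19 on the log2 scale (SE 0.35, adjusted p = 0.0167, edgeR), to 336 and 351 CPM in fat-1 EtOH mice 3 and 4 against 994 to 1455 in the other fat-1 EtOH mice.

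Members of the list outside the rule for named genes were looked at after their values were seen. Slc26a3, the chloride and bicarbonate exchanger of the large intestine, stood at 472 CPM in WT EtOH mouse 2 and at 364 and 438 CPM in fat-1 EtOH mice 3 and 4, against 102 to 208 CPM in the other 13 mice. Slc26a6, a like exchanger of the small intestine, was at 5.82 and 7.58 CPM in fat-1 EtOH mice 3 and 4, at 532 CPM in WT EtOH mouse 2 and at 374 to 704 CPM in the other 13 mice. Thus the 3 mice high in Car1 shared high Slc26a3, but only the mice that were also high in Car8 were low in Slc26a6.

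The genes whose pattern over the 16 mice was most like that of each carbonic anhydrase were found from the root mean square (RMS) difference of centred log2 CPM, a description over mice that share libraries and gut position. For Car1 they were Aqp8 (RMS difference 2.26, where Car1 itself deviated by an RMS of 5.28), Cyp2d34 and Gal3st2c. For Car2 they were Acaa1b (0.86) and Cwh43. Aqp8 encodes a water channel.

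For Car3 the nearest genes were Ccdc80 (0.22), Plin1 (0.22), the lipid droplet protein of fat cells, and Glb1l2, and for Car4 Prkab1 (0.28) and Fam83e. Those nearest to Car8 were Creb3l1 (0.19), 5330417C22Rik and Slc1a4, and those nearest to Car12 were Sema3c (0.31), Fzd3 and Tst. For Car9 they were Lmnb2 (0.11), Idh3b and Zadh2, and for Car13 Anxa4 (0.15), Glud1 and Maob. Car7 was nearest to Hcar1 (0.28), Mad1l1 and She, but its own deviation was an RMS of 0.41. Within the family, the closest pairs over 1 CPM were Car9 and Car13 (0.71), Car4 and Car8 (0.72), and Car8 and Car12 (0.75). The first distance was no smaller than the RMS deviation of Car13 itself (0.70), and the next no smaller than that of Car4 itself (0.64). Neighbours on chromosome 3 differed by 5.76 (Car13 and Car1), 4.99 (Car1 and Car3) and 2.40 (Car3 and Car2).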

How the data were processed

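RNA-seq of the ileum of 16 mice was analysed from the raw counts of reads per gene that the authors deposited, made with htseq after alignment with tophat2 to mm10 and without normalization. Settings of the counting are not given in the sources used here. Per the labels, FastQC 0.10.1 was used on the reads. The table holds 21965 genes and 8422645 to 11438539 counts per mouse. Symbols and positions came from GENCODE M21 (26 genes had no symbol). The tests used edgeR 4.0.16 in R 4.3.3: filterByExpr (13811 genes left), TMM, and a robust quasi-likelihood fit with 1 mean per group over all mice, with Benjamini-Hochberg adjustment at 0.05. The authors' own comparisons used cuffdiff2 and were not used. The edgeR p-values set each difference between groups against the spread between mice, estimated over all 4 groups with information from other genes. Levels are CPM over the TMM library size. Tested on simulated data of the fat-1 diet comparison, edgeR called 63 of 108 genes changed 2-fold, 84 of 92 changed 4-fold and 6 of 13468 unchanged. The simulated data held no mice that stood apart in gut position, so these rates need not hold for the real comparison. The genes described and all lists were chosen with earlier results of these data known. Named genes are the 9 carbonic anhydrases, the other family genes, list genes past the threshold, defining markers, and the 3 genes of nearest pattern (log2 CPM, prior count 2), apart from 3 genes that are not reported here. Alternatives were DESeq2 1.42.0, limma 3.58.1 voom with quality weights, RLE and upper-quartile scaling, filters of 1 count in any and 10 counts in every library, the groups compared alone, a block for the replicate number, each mouse left out in turn, and the mice that stood apart left out.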

Additional observations from a re-analysis of the deposited data

Results flagged for a closer look

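In groups of 4 or 5 mice, 4 of 27 sets of values of a carbonic anhydrase held a mouse far from the others by Dixon's criterion. Its critical values are made for independent normal values, whereas these were CPM without a log scale in sets that share mice. An excess over chance thus cannot be read from 4 of 27. Car1 was at 58.6 CPM in WT PF mouse 1, where the next mouse had 2.39 CPM, and at 13.6 CPM in fat-1 PF mouse 4, where the next had 0.281 CPM. Car3 was at 235 CPM in WT PF mouse 4, against 90.3 CPM in the next mouse, and at 129 CPM in fat-1 PF mouse 2, against 58.4 CPM. WT EtOH held 3 mice and was not examined in this way.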

How the results depend on the processing

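The count of carbonic anhydrases that changed with EtOH in WT mice was 0 (11 of 13811 genes in all). It was 1 with DESeq2 (257 of 13785 in all) and 1 with only the groups compared (8 of the family tested, 1103 of 13250 in all). It was 1 with the replicate block (18 of 13811) and 1 without the 5 mice that stood apart (Car8, 468 of 13716). With limma voom it was 2 (2800 of 13811), and without single mice 0 to 1 (1 without WT PF mouse 4, with 66 of 13784 in all). In fat-1 mice the count was 4 (5170 of 13811 genes in all), against 7 with DESeq2 (5556 of 13785). It was 1 without fat-1 PF mice 2 and 4 (1965 of 14100) and 1 without all 5 (1626 of 13716). Without single mice it was 3 to 5 (3928 to 5430 genes in all). It was 0 in every alternative for both genotype comparisons and the interaction. Replicate numbers did not pair the mice (mean correlation of deviations -0.0225 over 21 pairs with the same number, 0.00703 over 74 others). The block gave 3 genes of the family in fat-1 mice (4748 of 13811 in all), losing Car1 (adjusted p = 0.0679, edgeR). The 1 gene in WT mice was Car13 (adjusted p = 0.0403, edgeR). Log2 fold changes that turned were those of Car4 between PF groups (0.065 without fat-1 PF mice 2 and 4, 0.061 without all 5), and in WT mice Car1 (-3.84 without WT EtOH mouse 2 and up to 10.02 without other single mice, -3.83 without the 3 EtOH mice and -3.83 without all 5), Car2 (-0.64, up to 3.84, -0.64 and -0.63 in the same fits) and Car7 (0.017 without WT PF mouse 4, down to -0.32 without others). Car2 in fat-1 mice turned to -0.79 with voom, -1.79 without the 3 EtOH mice and -0.30 without all 5, and the interaction of Car8 to -0.029 and -0.33 in the latter fits. Beyond the mice left out, the cause was not tested. Upper-quartile scaling shifted all genes of the fat-1 diet comparison from a median of 0.05 to 0.20 (log2), and Car4 then passed at 1.02 (adjusted p = 0.0294). Of the refitted log2 fold changes, 538 kept their direction and side of the threshold, 18 came to pass it, 15 no longer did and 14 turned. The mean CPM of Car13 in fat-1 PF mice was 103 over the total count in place of 117.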
